A study of Mus musculus with 10 samples.

Results

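The genes described here are 8 mouse genes of renal phosphate and vitamin D handling, chosen by name and read out by day and by nephron segment. They are the phosphate transporters Slc34a1, Slc34a3 and Slc20a1, the co-receptor gene Kl, the vitamin D enzymes Cyp27b1 and Cyp24a1, the vitamin D receptor gene Vdr, and Gc, which encodes the vitamin D binding protein. All 8 were found in each of the 10 deposited tables, which hold 28808 genes together. Each table is a Drop-seq library, in which single cells are caught in droplets with barcoded beads and the 3' ends of their transcripts are counted as UMIs (molecules told apart by a molecular tag).

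The libraries came from kidney cortex of mice labelled as 4 weeks old. A single control library was made from normal kidneys, and the other libraries from injured kidneys. Days 1, 2 and 4 had a single library each, and days 7, 11 and 14 had 2 libraries each. The labels used here give no genotype, strain, sex or agent, do not name the kind of injury, and do not say whether the 2 libraries of a day came from separate animals. P-values therefore measure only the spread between these libraries, which may be technical, and days 1, 2 and 4 are given as values with no test.

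Phosphate filtered by the glomerulus is taken back in the proximal tubule, mainly by the sodium-phosphate cotransporters NaPi-IIa (Slc34a1) and NaPi-IIc (Slc34a3) of the brush border. Klotho (Kl) forms, with FGF receptors, the receptor for the bone hormone FGF23, which lowers phosphate uptake and vitamin D activation. The kidney also makes the active hormone calcitriol through the mitochondrial enzyme Cyp27b1 and breaks it down through Cyp24a1. Calcitriol acts through the nuclear receptor Vdr, and its precursor travels in blood bound to the product of Gc, a gene classically expressed in the liver.

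Cells were assigned to nephron segments and other types by gates on raw UMIs of 64 marker genes, none of them a member. A cell entered a gate with at least 3 UMIs over at least 2 markers of that type and at least 2 times the sum of any other type's markers. The proximal gate, defined by 12 markers such as the endocytic receptor genes Lrp2 and Cubn, held 24015 of 50158 cells. All 12 of its markers were detected, summing to 6276 CPM (UMIs of a gene scaled to the same total in every gate), against 137.9 CPM for the 5 distal markers and 16.0 CPM for the macrophage markers, which summed to 7378 CPM in the macrophage gate. Proximal cells numbered from 382 to 4675 per library. The distal gate (distal convoluted and connecting tubule, with markers such as Slc12a3 and Calb1) held 54 to 391 cells per library. The 10 libraries held 7091848 to 31632205 UMIs each, the median cell held 1254 to 2662 UMIs, and no pair of libraries shared more than 4 barcodes.

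The members lie on 5 chromosomes of the GRCm38 build (mm10), in the GENCODE M21 annotation. Slc34a1 spans chr13:55398187-55415592 on the plus strand, Slc34a3 chr2:25228898-25234364 on the minus strand, and Slc20a1 chr2:129198764-129211616 on the plus strand. Kl spans chr5:150952607-150993817 on the plus strand, and Gc chr5:89417522-89457898 on the minus strand. Cyp27b1 spans chr10:127048250-127053006 on the plus strand, Cyp24a1 chr2:170482708-170497145 on the minus strand, and Vdr chr15:97854425-97910630 on the minus strand. Pfn3 overlaps Slc34a1 on the other strand, 9830144P21Rik and Gm4430 overlap Slc20a1, and Pfdn4 overlaps Cyp24a1. The strand setting of the authors' counting is not given in the sources used here, so reads of these overlapping genes may not be told apart.

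The 250 bases before the RefSeq start (RefSeq, GRCm38.p6) were read for 7 of the 8 members; Cyp24a1 had no entry. The 3 promoters below belong to the proximal transporter Slc34a1 (chr13:55399398-55399647, plus strand), to Gc (chr5:89457899-89458148, minus strand) and to Kl (chr5:150952357-150952606, plus strand). They are shown because these 3 genes had the smallest adjusted p-values of the members between day 7 and the control in the proximal gate and differed in motif content. Capitals mark the HNF1 motif GTTAAT or its reverse complement ATTAAC; HNF1 factors are known regulators of proximal tubule and liver genes.
Slc34a1: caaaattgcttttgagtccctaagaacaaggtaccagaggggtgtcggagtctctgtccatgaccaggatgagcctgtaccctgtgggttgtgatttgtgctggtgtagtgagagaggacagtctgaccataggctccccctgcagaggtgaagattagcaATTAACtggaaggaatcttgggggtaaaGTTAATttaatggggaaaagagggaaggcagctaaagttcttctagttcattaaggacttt
Gc: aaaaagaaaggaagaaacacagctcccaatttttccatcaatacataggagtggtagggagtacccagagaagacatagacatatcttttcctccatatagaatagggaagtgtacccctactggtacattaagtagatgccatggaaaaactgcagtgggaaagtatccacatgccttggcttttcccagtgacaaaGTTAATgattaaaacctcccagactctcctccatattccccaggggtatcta
Kl: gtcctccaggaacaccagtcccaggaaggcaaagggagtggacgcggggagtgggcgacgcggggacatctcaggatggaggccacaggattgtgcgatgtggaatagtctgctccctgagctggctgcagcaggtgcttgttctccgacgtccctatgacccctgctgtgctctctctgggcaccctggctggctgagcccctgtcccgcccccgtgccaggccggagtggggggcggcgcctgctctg
Slc34a1 held 2 matches, ending 83 and 55 bases before the start on the minus and plus strands, and Gc held 1, ending 46 bases before it on the plus strand. The other 5 members read, Kl among them, held none in this window. The motif was found on either strand in 6.43% of 32851 promoters of the same length. The HNF4 core CAAAGTC (3.84% of all promoters) and the vitamin D response element, a direct repeat with 3 bases between its parts (0.0396% of all promoters), were in none of the 7. The searches read both strands with no mismatch, and none of the matches overlapped another.

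Among the nephron segments, 6 members had their highest median level in the proximal gate, and Kl and Vdr in the distal gate. Levels are given in CPM of the summed UMIs of a gate, as the lowest, median and highest library, and are compared between gates of 1 gene, not between genes. Slc34a1 stood at 709, 2828 and 3777 CPM in convoluted proximal cells and at 1581, 2246 and 2891 CPM in straight proximal cells. In the distal gate it stood at 5.64, 90.2 and 187 CPM, no higher than in gates that should lack it, namely 21.3, 135 and 330 CPM in endothelial cells and 14.2, 120 and 234 CPM in macrophages. Slc34a1 in the distal gate is therefore read as background. Slc34a3 was at a median of 42.4 CPM in convoluted cells (8.13 to 81.5), of 3.30 CPM in straight cells and of at most 1.03 CPM in the distal, thick ascending limb, principal, intercalated, endothelial and macrophage gates.

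The vitamin D enzymes and Gc followed the same outline at low levels. Cyp24a1 had a median of 11.4 CPM in convoluted cells (1.85 to 78.1), of 0.761 CPM in straight cells and of 0 in the distal gate. Cyp27b1 had a median of 8.15 CPM in convoluted cells (0.984 to 46.4) and 1.04 CPM in straight cells. Outside the tubule, 0 of 1955 endothelial cells held a UMI of it, but 2666 macrophages held 9 UMIs. The 345 T and NK cells held 3 UMIs, a median of 4.81 CPM over 3 libraries. Gc ranged from 11.7 to 360 CPM in convoluted cells around a median of 32.6 CPM, and from 0.686 to 41.0 CPM in straight cells around 2.07 CPM. Slc20a1, a widely expressed phosphate transporter, was at 23.8, 39.4 and 151 CPM in the proximal gate and at 28.2, 48.6 and 102 CPM in endothelial cells.

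Kl and Vdr had another order. Kl reached 148, 497 and 1042 CPM in the distal gate, 71.8, 193 and 333 CPM in principal cells, 90.6, 154 and 284 CPM in the proximal gate and 35.6, 60.7 and 160 CPM in the thick ascending limb. The principal and proximal ranges overlapped over most of their width, as did those of the thick ascending limb and the intercalated cells (19.0 to 136 CPM). Vdr stood at 85.3, 166 and 256 CPM in the distal gate, 71.7, 89.3 and 118 CPM in the proximal gate, 48.8, 81.8 and 155 CPM in intercalated cells, 41.1, 60.5 and 87.6 CPM in the thick ascending limb and 35.1, 44.9 and 72.6 CPM in principal cells. Neighbours in that order overlapped. Macrophages held a median of 14.2 CPM of Kl (0 to 71.97) and 5.78 CPM of Vdr (0 to 31.03). Endothelial cells held 14.2, 22.5 and 41.1 CPM of Kl and 12.1, 30.3 and 65.7 CPM of Vdr. T and NK cells held 7.22 to 61.2 CPM of Vdr on 9 UMIs. Endothelial ranges overlapped those of the thick ascending limb and intercalated cells for both genes, and of principal cells for Vdr. These levels are not told apart from background. Distal and proximal levels of both genes lay above the endothelial ranges.

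**Figure D1:**
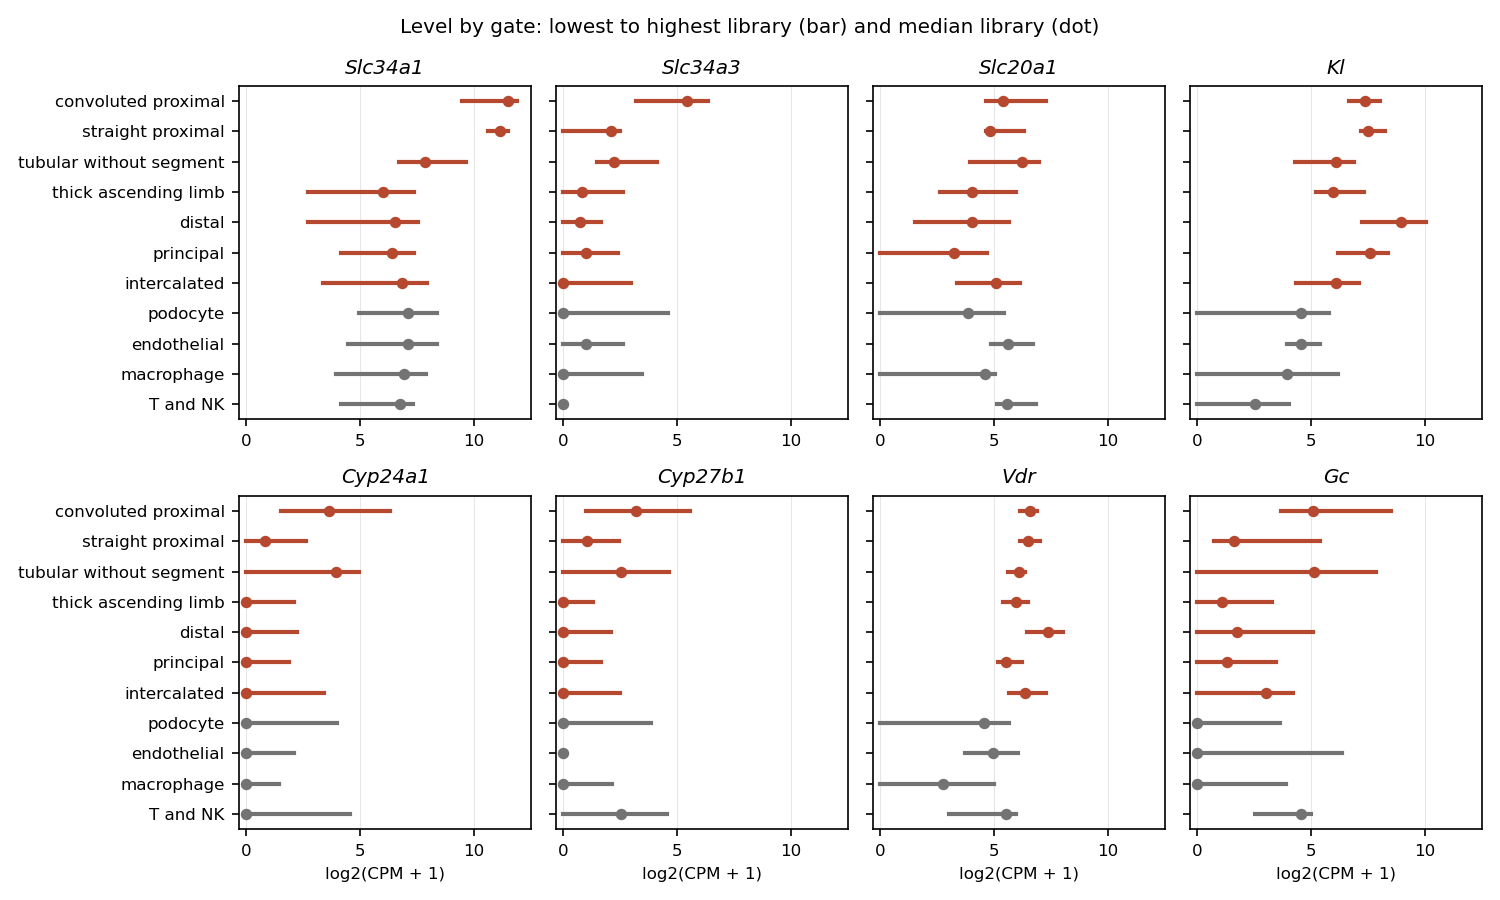
Level of each member by gate, as log2(CPM + 1) on the x axis, with a bar from the lowest to the highest library and a dot at the median library, over libraries with at least 30 cells in the gate. Kl and Vdr have their highest median in the distal gate (497 and 166 CPM), and Slc34a3, Cyp24a1, Cyp27b1 and Gc are higher in convoluted than in straight proximal cells.

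Gates of the same library were then compared with the library as a term. Between the distal and the proximal gate all 8 members passed the test, where 55.3% of 12717 genes did, 2 of them higher in the distal gate (24.4% of genes) and 6 lower (30.9%). Scaled with edgeR's TMM factors, Kl in the distal gate was 1062 CPM in the control, 139, 176 and 286 on days 1, 2 and 4, 124 and 203 on day 7, 754 and 680 on day 11, then 1058 and 1248 on day 14. In the proximal gate of the same libraries it was 395, then 103, 243 and 102, then 92.4 and 68.2, then 185 and 226, and last 320 and 298. Kl was higher in the distal gate in 9 of 10 libraries, the exception being day 2, with a log2 difference of 1.28 ± 0.22 (SE, n = 10 libraries; edgeR adjusted p = 0.00014). Vdr was also higher in the distal gate in 9 of 10 libraries, all but replicate 1 of day 7, by 0.73 ± 0.15 on the log2 scale (edgeR adjusted p = 0.000568). The other 6 were lower in the distal gate, from Slc34a1 (a log2 difference of -4.70) to Slc20a1 (-1.79).

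Against the proximal gate, the thick ascending limb was lower for all 8 members in 10 of 10 libraries, where 58.9% of 12576 genes passed the same test and 32.4% were lower. The log2 differences ran from -5.22 for Slc34a1 to -1.51 for Kl and -0.86 for Vdr. The thick ascending limb gate thus differed from the distal gate in where Kl and Vdr stood relative to the proximal gate; the 2 gates were not tested against each other.

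Within the proximal gate, Slc34a3, Gc and both vitamin D enzymes were higher in convoluted than in straight cells. Convoluted cells were marked by genes such as the glucose transporter gene Slc5a2, and straight cells by genes such as Slc7a13, and 7 libraries had at least 30 cells of each. Proximal cells of neither kind were not compared. Of 3632 proximal Gc UMIs in all 10 libraries, 1844 lay in convoluted cells of the 10 libraries, and 173 in straight cells of these 7. For Cyp27b1 these were 297 and 56 of 535. The counts of the 2 kinds of cell thus cover unlike sets of libraries. Of the 8 members, 5 passed the test, against 36.2% of 11732 genes, with 4 lower in straight cells (18.9% of genes) and Kl higher (17.3% of genes). Slc34a3 in convoluted cells was 25.6 TMM-scaled CPM in the control, 38.2 on day 4, 6.87 in replicate 2 of day 7, 46.6 and 35.9 on day 11, then 77.8 and 85.3 on day 14. In straight cells of these libraries it was 1.63, 3.77, 0, 3.15, 3.72, 4.73 and 5.09. Straight cells were lower in 7 of 7 libraries, and the 2 sets of values did not overlap (log2 difference -3.84 ± 0.14, edgeR adjusted p = 2.5e-09).

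Gc was also lower in straight cells in 7 of 7 libraries, by -2.52 ± 0.22 on the log2 scale, with 13.1 against 3.38 TMM-scaled CPM in the control and 251 against 34.5 in replicate 2 of day 7. Cyp24a1 was lower in 7 of 7 (-2.42 ± 0.46, edgeR adjusted p = 0.00119) and Cyp27b1 in 6 of 7 (-2.20 ± 0.41, edgeR adjusted p = 0.00119). Kl was higher in straight cells in 6 of 7 libraries, by only 0.34 ± 0.12 on the log2 scale (edgeR adjusted p = 0.04). That call was lost without replicate 2 of day 11, without replicate 1 of day 14, and when libraries were scaled by their totals (0.20, adjusted p = 0.159).

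Slc34a1 had no single direction between the proximal parts. Convoluted cells held 3080 TMM-scaled CPM in the control, 1308 on day 4, 494 in replicate 2 of day 7, 3144 and 3708 on day 11, then 3841 and 3956 on day 14. Straight cells held 1936, 1984, 1894, 2232, 2770, 2682 and 3136 in the same order. Straight cells were lower in 5 of 7 libraries and higher on day 4 and day 7, and the fitted difference was -0.02 ± 0.26 on the log2 scale (edgeR adjusted p = 0.959). Vdr (0.17) and Slc20a1 (-0.26) did not pass either.

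**Figure D2:**
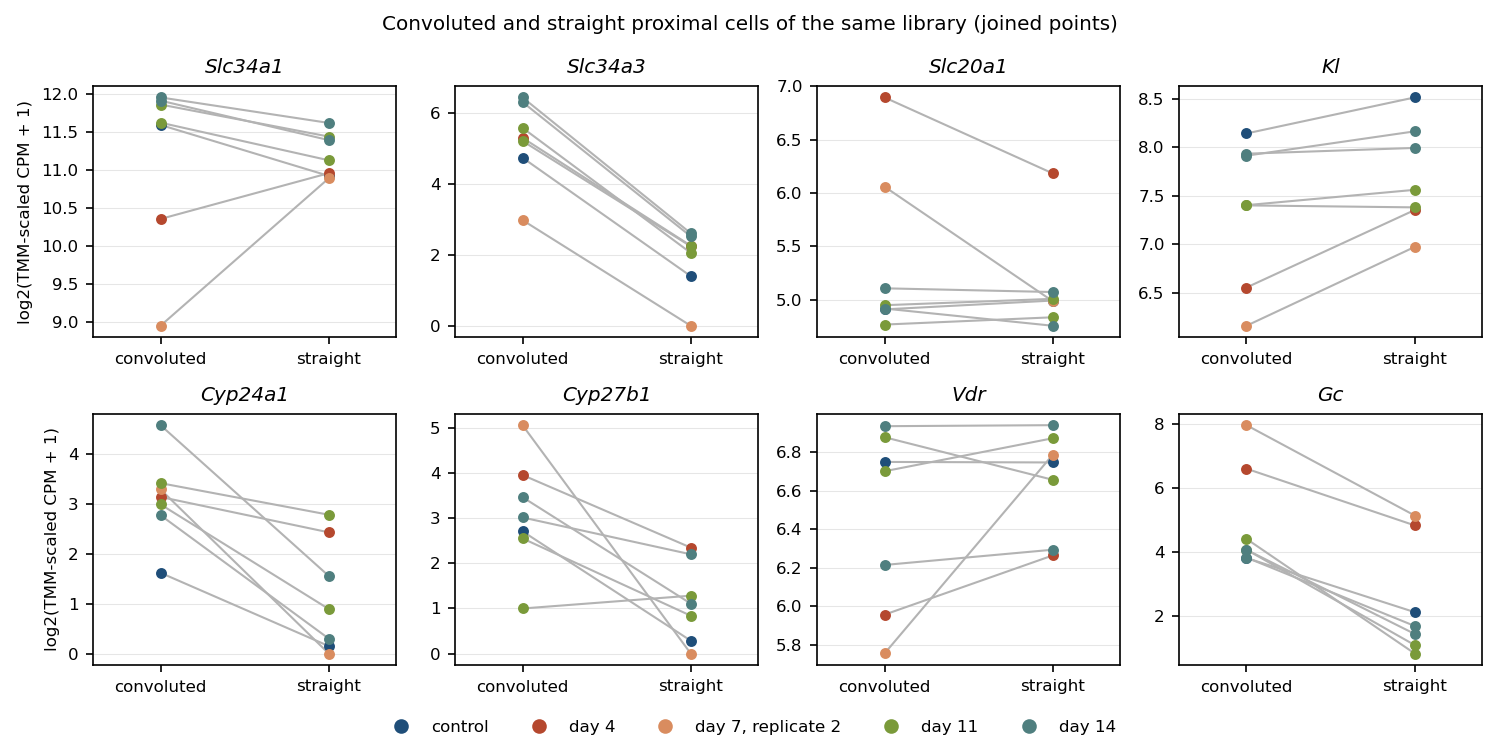
Each member in convoluted and straight proximal cells of the 7 libraries with at least 30 cells of each, as log2(TMM-scaled CPM + 1), with the 2 values of a library joined. The lines of Slc34a3, Gc and Cyp24a1 fall in 7 of 7 libraries, and those of Slc34a1 rise on day 4 and day 7 and fall in the other 5.

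By day, the proximal gate showed Slc34a1 and Kl low and Gc, Cyp27b1, Cyp24a1 and Slc20a1 high on day 7. Between day 7 and the control 6 of the 8 members passed the test, 4 higher and 2 lower, where 38.4% of 14526 genes passed, 18.9% higher and 19.5% lower. From day 7 to day 11 again 6 passed, 3 higher and 3 lower, where 38.7% of genes passed, 19% higher and 19.7% lower; both comparisons use the same 2 libraries of day 7. Scaling by library totals in place of TMM moved the median of all genes from 0.045 to 0.925 (log2) on day 7 and the higher share of all calls from 49.2% to 88.7%, and from day 7 to day 11 that share from 49.2% to 14.7%. With library totals the day 7 changes of Slc34a1 and Kl were -0.95 and -1.42 and still passed, and Slc34a3 (1.48, edgeR adjusted p = 0.0389) passed as well. All 10 libraries entered 1 fit with 3 residual degrees of freedom, with days 1, 2 and 4 in the fit but in no comparison of days. The replicated days alone gave the spread, so the lone control was assumed to vary like them. Adjusted p-values come from the quasi-likelihood F test of edgeR with Benjamini-Hochberg adjustment over all genes tested. The values below are TMM-scaled CPM of the proximal gate.

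Slc34a1 was 2413 in the control, 646 on day 1, 3170 on day 2, 1248 on day 4, 721 and 629 on day 7, 2694 and 3298 on day 11, then 3295 and 3812 on day 14. Days 1, 4 and 7 lay below the control, and the day 2, 11 and 14 libraries above it. Its mean on day 7 was 675 ± 64.7 (SD, n = 2). Against the control it fell by 1.84 ± 0.22 on the log2 scale (3.58-fold; edgeR adjusted p = 4.86e-05). It rose by 2.15 ± 0.19 from day 7 to day 11 (edgeR adjusted p = 5.82e-06), to 2996 ± 427. The share of proximal cells with a Slc34a1 UMI was 93.9% in the control, 67.3% and 66.8% on day 7, then 93.3% and 96.2% on day 14. After thinning each cell to 1000 UMIs these shares were 79.7%, then 53.0% and 48.0%, then 87.0% and 92.3%. As background, thinned endothelial cells held one in 16.2% of cells in the control, 0% (0 of 49 cells, which allows up to 6.12%) and 3.31% on day 7, then 25.9% and 28.7% on day 14, at median depths of 1018.5 to 1442 UMIs before thinning.

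Slc34a3 was 6.23 in the control, 6.16 on day 1, 67.6 on day 2, 19.7 on day 4, 18.4 and 5.16 on day 7, 14.7 and 13.95 on day 11, then 24.3 and 33.8 on day 14. The 2 libraries of day 7 lay on either side of the control, and both of day 14 lay above it. The difference on day 7 was 0.59 ± 0.51 on the log2 scale (edgeR adjusted p = 0.391), and without replicate 2 of day 7 it was 1.56 (adjusted p = 0.0119). Between days 7 and 11 it passed only when replicate 1 of day 7 was left out (1.47, adjusted p = 0.00722) or in convoluted cells alone, among the 17 other settings. Slc34a3 was the only member to pass between day 14 and the control (log2 difference 2.22 ± 0.44, 4.66-fold, edgeR adjusted p = 0.0116), 1 of 8, which is near the 9.49% of all genes that passed (4.32% higher). On day 2, 364 of 1421 proximal cells held a UMI of it (25.6%, exact 95% interval 23.4% to 28.0%), against 68 of 3396 in the control (2.002%, 1.56% to 2.53%). Thinned to 1000 UMIs a cell the shares were 7.43% and 0.854%. Before thinning, 9 of 2254 distal cells over all libraries (0.399%) held one. Convoluted cells, where Slc34a3 was higher, were 85.6% of proximal cells on day 2 and 17.6% in the control. In convoluted cells alone Slc34a3 ranged from 8.13 to 81.5 CPM over the libraries. The part of this make-up in the day 2 difference was not tested.

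Slc20a1, the transporter found in many cell types, was 33.3 in the control, 126, 45.8 and 106 on days 1, 2 and 4, 100.4 and 58.1 on day 7, 29.5 and 33.8 on day 11, then 37.0 and 29.8 on day 14. All 5 libraries of days 1 to 7 lay above the other 5. The log2 change was 1.21 ± 0.31 between control and day 7 (edgeR adjusted p = 0.00914) and -1.28 ± 0.26 from day 7 to day 11 (edgeR adjusted p = 0.00187).

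Kl, the FGF23 co-receptor, was 382 in the control, 101, 235 and 99.2 on days 1, 2 and 4, 89.1 and 67.0 on day 7, 172 and 205 on day 11, then 305 and 280 on day 14. Every injured library lay below the control, the lowest being those of day 7 at 78.1 ± 15.6 (SD, n = 2). The fall on day 7 was 4.95-fold (log2 change -2.31 ± 0.24, edgeR adjusted p = 1.56e-05), and Kl rose by 1.29 ± 0.21 to day 11 (edgeR adjusted p = 0.000376), or by 0.54 with library totals (adjusted p = 0.0464). By day 14 it stood at 293 ± 17.7, a log2 difference of -0.38 ± 0.23 from the control that did not pass (edgeR adjusted p = 0.325). A Kl UMI was held by 52.1% of proximal cells in the control, by 25.1% and 29.5% on day 7 and by 43.1% and 43.2% on day 14. Thinned, these were 23.1%, then 12.2% and 9.87%, then 21.2% and 20.8%, with 2.202% and 0.552% of macrophages on day 7 as background.

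Cyp27b1, the enzyme that makes calcitriol, was 1.16 in the control (13 UMIs), 3.08, 9.48 and 13.4 on days 1, 2 and 4, 11.3 and 26.4 on day 7, 1.76 and 1.34 on day 11, then 3.74 and 4.81 on day 14. Every injured library was above the control, and the 2 libraries of day 7 averaged 18.9 ± 10.7 (SD, n = 2). Those of day 11 rested on 8 and 7 UMIs and were not tested against the control. Its log2 change was 4.12 ± 0.55 on day 7 (17.4-fold; edgeR adjusted p = 0.000106) and -3.72 ± 0.46 from day 7 to day 11 (edgeR adjusted p = 5.13e-05). Cyp24a1, the enzyme that breaks calcitriol down, was 0.623 in the control, 51.4, 73.0 and 12.6 on days 1, 2 and 4, 24.0 and 8.74 on day 7, 7.92 and 2.48 on day 11, then 1.41 and 9.71 on day 14. Its highest values were thus on days 1 and 2, which have no replicate. In the control it rested on 7 UMIs in 3396 cells, or 0.464 CPM with an exact Poisson interval of 0.186 to 0.955. On day 1 it had 167 UMIs (61.4 CPM, 52.5 to 71.5) and on day 2 it had 608 UMIs (77.1 CPM, 71.1 to 83.5); these intervals, like all intervals here, cover counting error only. The log2 change on day 7 was 4.45 ± 1.19 (edgeR adjusted p = 0.011), and from day 7 to day 11 it was -1.46 ± 0.79, which did not pass (edgeR adjusted p = 0.167); without either library of day 14 in the fit it did (-1.48, adjusted p = 0.0271 and 0.027), as it did with library totals (-2.22, adjusted p = 0.0381) and with no low-count filter (-1.48, adjusted p = 6.09e-05).

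Vdr was 119 in the control, 68.4, 85.3 and 68.0 on days 1, 2 and 4, 84.2 and 63.2 on day 7, 119.7 and 119.4 on day 11, then 87.2 and 134 on day 14. The 5 libraries of days 1 to 7 lay below the control and below both libraries of day 11. The difference between day 7 and the control did not pass (log2 -0.71 ± 0.28, edgeR adjusted p = 0.0604), and with library totals in place of TMM it was 0.18. It passed under 2 of 16 other settings, without replicate 1 of day 7 (-0.91, adjusted p = 0.0278) and with no low-count filter (-0.75, adjusted p = 0.0196). From day 7 to day 11 Vdr rose by 0.72 ± 0.24 (edgeR adjusted p = 0.0302), a direction that library totals turned to -0.04 (adjusted p = 0.908). That call held under 11 of 17 other settings. It was lost without replicate 2 of day 7 (0.50, adjusted p = 0.182), without either library of day 11 (adjusted p = 0.103 and 0.111), with a gate minimum of 5 UMIs and in convoluted cells alone.

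Gc had the largest fitted changes of the members on day 7 and from day 7 to day 11. It was 5.25 in the control, 60.4, 41.5 and 118 on days 1, 2 and 4, 197 and 206 on day 7, 9.46 and 4.40 on day 11, then 5.65 and 6.17 on day 14. The 5 libraries of days 1 to 7 all lay above the other 5. Gc was 38.4-fold higher on day 7, at 202 ± 6.45 (SD, n = 2), than in the control (log2 change 5.26 ± 0.38, edgeR adjusted p = 1.6e-06), and fell by 4.88 ± 0.29 to day 11 (edgeR adjusted p = 4.54e-07). A Gc UMI was held by 51 of 3396 proximal cells in the control (1.502%) and by 111 of 382 and 167 of 572 on day 7 (29.1% and 29.2%). Thinned, the shares were 0.458%, 20.2% and 12.3%, against 0.92% and 0.74% of macrophages on day 7, at median depths of 1839 and 3160 UMIs in proximal cells and 1340.5 and 1760 UMIs in macrophages before thinning.

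**Figure D3:**
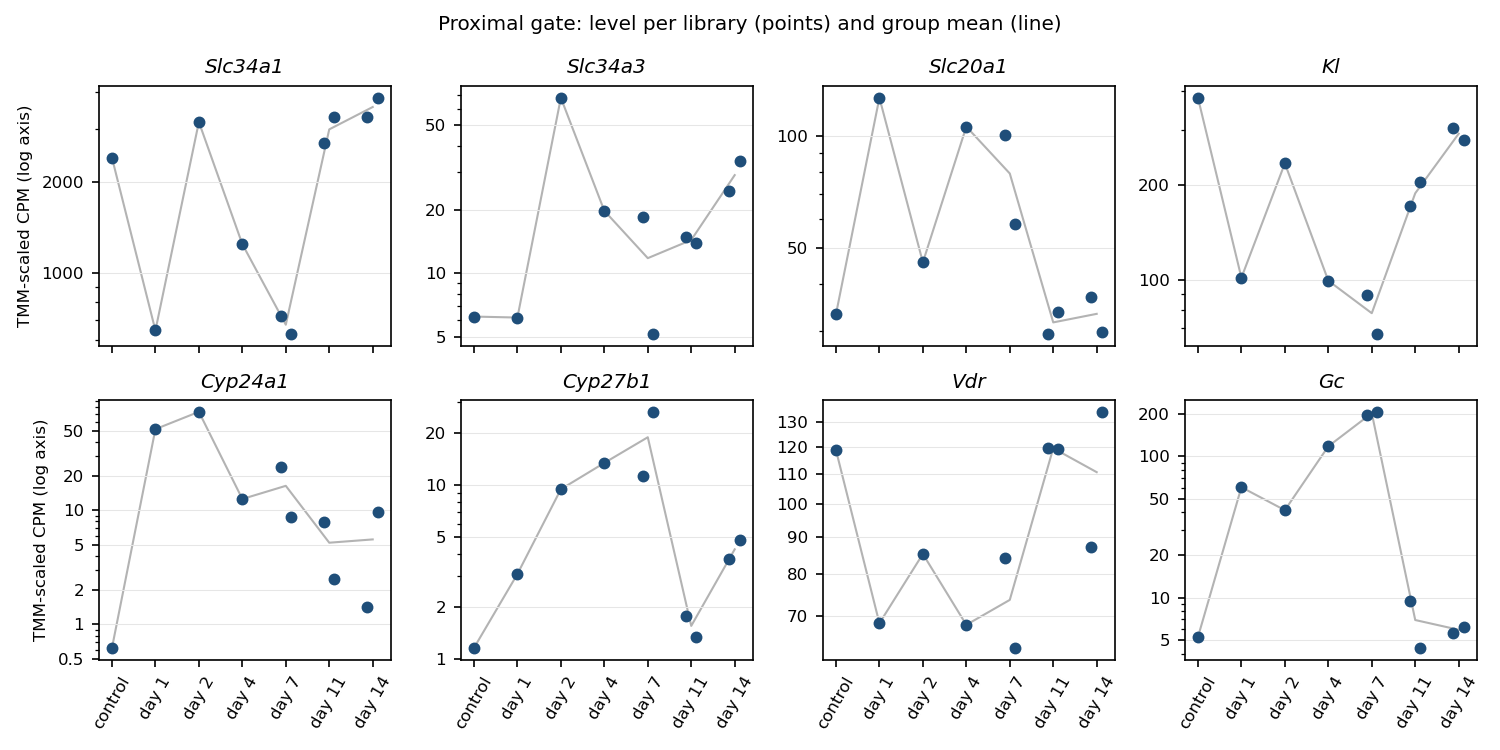
TMM-scaled CPM of each member in the proximal gate (y axis, log scale) by group (x axis), with a point for each of the 10 libraries and a line through the group means. Gc lies between 41.5 and 206 on days 1 to 7 and at or below 9.46 in the other libraries, and Kl lies below the control in all 9 injured libraries.

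Between days 11 and 14 none of the 8 members passed the quasi-likelihood test of edgeR in the proximal gate, where 9.41% of genes did. At an unadjusted p under 0.05 there were 3, and DESeq2 also called 0. The 3 were Kl (log2 change 0.63 ± 0.20, edgeR adjusted p = 0.064), Slc34a3 (1.02 ± 0.34, edgeR adjusted p = 0.0803) and Cyp27b1 (1.46 ± 0.48, edgeR adjusted p = 0.0815). All 3 passed when only these 2 days were fitted or when either library of day 7 was left out. Against the control on day 14, Cyp27b1 (1.87 ± 0.55, edgeR adjusted p = 0.0514), Cyp24a1 (3.10 ± 1.18, edgeR adjusted p = 0.12) and Slc34a1 (0.56 ± 0.23, edgeR adjusted p = 0.152) did not pass. Cyp27b1 passed there when either library of day 7 was left out of the fit (adjusted p = 0.0158 and 0.0181), and Cyp24a1 without replicate 1 of day 14 (3.92, adjusted p = 0.00751).

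**Figure D4:**
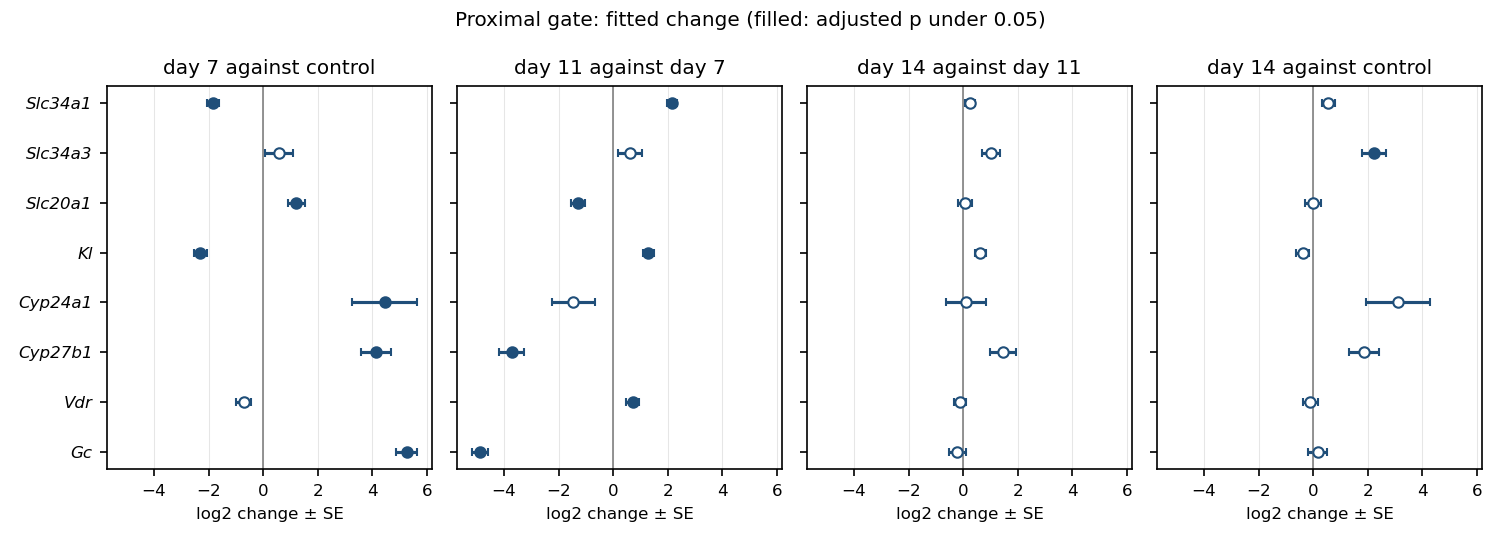
Log2 change of each member in the proximal gate for the 4 comparisons between days, as the edgeR estimate with its SE; filled points have an adjusted p under 0.05. On day 7 Gc, Cyp24a1, Cyp27b1 and Slc20a1 are higher and Kl and Slc34a1 lower than in the control; with library totals in place of TMM, Vdr changes sign in both comparisons with day 7, and Slc34a3 from day 7 to day 11.

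The proximal cells of the days also differed in make-up. Straight cells were 55.2% of proximal cells in the control, 3.44%, 1.55% and 18.1% on days 1, 2 and 4, 1.83% and 15.6% on day 7, 43.1% and 54.5% on day 11, then 50.5% and 40.9% on day 14. Convoluted cells were 17.6% in the control, 66.8%, 85.6% and 41.1% on days 1, 2 and 4, and 50.5% and 31.6% on day 7. They were 21.4% and 16.5% on day 11, then 25.5% and 35.8% on day 14. The rest were of neither kind. Cells with a UMI of Havcr1 (Kim-1, a marker of injured proximal tubule) were 1.001% in the control, 70.2%, 10.6% and 52.9% on days 1, 2 and 4, 65.7% and 56.3% on day 7, and 0.698% to 1.20% later. The 4 injury markers Havcr1, Krt20, Lcn2 and Vcam1 summed to 2.85 CPM in the proximal gate of the control (Krt20 at 0) and to 3941 and 2358 CPM on day 7. Of the 5 macrophage markers used, 4 or 5 were detected there in each library. They summed to 8.94 CPM in the control, 142 and 45.7 CPM on day 7 and 16.9 and 19.7 CPM on day 11, and the median mitochondrial share of a library's cells was 23.5% in the control and 3.604% and 4.29% on day 7. With at most 25% mitochondrial UMIs a cell, 144 of 148 member values kept their side of the threshold and 4 lost a call, none of them in the proximal gate. Convoluted cells alone and cells with and without Havcr1 are given next. The part of the other types' markers in the members' changes was not tested.

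In convoluted cells alone, a comparison added after the data were seen, Gc, Slc34a1, Kl and Slc20a1 still passed on day 7. Gc changed by 3.95 ± 0.43 on the log2 scale (edgeR adjusted p = 4.22e-05), Slc34a1 by -2.01 ± 0.34 (edgeR adjusted p = 0.00103), Kl by -1.64 ± 0.30 (edgeR adjusted p = 0.00159) and Slc20a1 by 1.48 (edgeR adjusted p = 0.0102). Cyp24a1 (3.13 ± 1.20, edgeR adjusted p = 0.0803) and Cyp27b1 (2.05 ± 0.75, edgeR adjusted p = 0.067) no longer passed. Slc34a3 had the other sign there on day 7, -0.81 (edgeR adjusted p = 0.341), and rose from day 7 to day 11 by 1.504 ± 0.48 (edgeR adjusted p = 0.0345). In convoluted cells its level was 22.8 CPM in the control and 74.4 and 81.5 CPM on day 14, a difference of 1.66 ± 0.49 that did not pass (edgeR adjusted p = 0.114).

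Proximal cells with and without Havcr1 were compared within the 8 libraries that had at least 30 of each, also after the data were seen. Depth per cell was not matched between them. In the control the 34 cells with Havcr1, of 3396, held 534791 UMIs of tested genes, and the other cells 14525701. On day 2 the 151 cells with Havcr1, of 1421, held 2206557 and the others 5643910. The part of depth in the differences below was not tested. Of the members, 3 passed and all were lower in cells with Havcr1, where 17.3% of 12047 genes passed and 9.21% were lower. Slc34a1 was 2198, 610, 2078, 844, 572, 339, 3030 and 3051 TMM-scaled CPM in cells with Havcr1 of the control, days 1, 2 and 4, both of day 7 and both of day 14. In cells without it these were 2569, 1250, 4011, 2550, 1529, 2201, 3376 and 3948. Cells with Havcr1 were lower in 8 of 8 libraries (log2 difference -1.04 ± 0.21, edgeR adjusted p = 0.00196). Slc34a3 was lower in 7 of 8 (-1.81 ± 0.28, edgeR adjusted p = 0.00021) and Kl in 7 of 8 (-0.67 ± 0.17, edgeR adjusted p = 0.00935).

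Gc did not pass between these cells (0.32, edgeR adjusted p = 0.542) and was higher with Havcr1 in 4 libraries and lower in 4. On day 7 it was 212 and 256 TMM-scaled CPM with Havcr1 and 216 and 70.3 without, so replicate 2 alone separated the 2 kinds of cell. Cyp27b1 (0.71, edgeR adjusted p = 0.157), Cyp24a1 (0.66, edgeR adjusted p = 0.12), Slc20a1 (0.14, edgeR adjusted p = 0.555) and Vdr (-0.35, edgeR adjusted p = 0.0708) did not pass either. Vdr did pass with a gate minimum of 5 UMIs (-0.38, edgeR adjusted p = 0.0484) and with doublets kept (-0.41, edgeR adjusted p = 0.0489). Without either library of day 7 the difference of Cyp24a1 was 0.84 or 0.83 and passed (edgeR adjusted p = 0.034 and 0.0268). It also passed with no low-count filter (0.62, edgeR adjusted p = 0.0453). Cyp24a1 had no single direction, being higher with Havcr1 in 4 libraries and lower in 4.

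In the distal gate, where Kl and Vdr were highest, both were low on day 7 and higher again on day 11; the comparisons with day 7 were added here after the data were seen. Of the 8 members 5 had enough counts for the fit, namely Kl, Vdr, Slc34a1, Slc20a1 and Gc. Of these, Gc passed in no comparison between days. Kl was 1097 TMM-scaled CPM in the control, 149, 184 and 296 on days 1, 2 and 4, 134 and 213 on day 7, 799.9 and 726 on day 11, then 1096 and 1294 on day 14. All 5 libraries of days 1 to 7 lay below the other 5. Its log2 change was -2.59 ± 0.25 on day 7 (6.02-fold lower; edgeR adjusted p = 2.57e-09) and 2.07 ± 0.23 from day 7 to day 11 (edgeR adjusted p = 3.7e-08). The share of distal cells with a Kl UMI was 309 of 391 in the control (79.0%), 27.8% and 41.9% on day 7, then 78.2% and 83.1% on day 14, or 47.7%, 16.1%, 22.8%, 49.6% and 61.2% after thinning.

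Vdr in the distal gate was 315 TMM-scaled CPM in the control, 98.04, 114 and 116 on days 1, 2 and 4, 63.1 and 110.0 on day 7, 244 and 291 on day 11, then 249 and 239 on day 14. Here too the 5 libraries of days 1 to 7 lay below the others. The log2 change was -1.74 ± 0.26 on day 7 (edgeR adjusted p = 9.01e-06) and 1.51 ± 0.25 to day 11 (edgeR adjusted p = 2.34e-05). With Slc34a1 at background level, 3 of 5 members passed on day 7 against 17.6% of 10109 genes, and 4 of 5 to day 11 against 21.1%. The fourth was Slc20a1 (-2.20 ± 0.72, edgeR adjusted p = 0.0271), a call held under 8 of 16 other settings. It was lost without any 1 of the 4 libraries of days 7 and 11 (adjusted p = 0.0651, 0.0836, 0.0697 and 0.203), with DESeq2, with a gate ratio of 3, with at most 25% mitochondrial UMIs and with doublets kept. From day 11 to day 14 Kl passed alone (0.65 ± 0.20, edgeR adjusted p = 0.0495, 6.27% of genes), a call lost without any 1 of these 4 libraries. Against the control on day 14 the background signal of Slc34a1 was the 1 call (3.8% of genes). The distal gate held 54 and 155 cells on day 7.

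**Figure D5:**
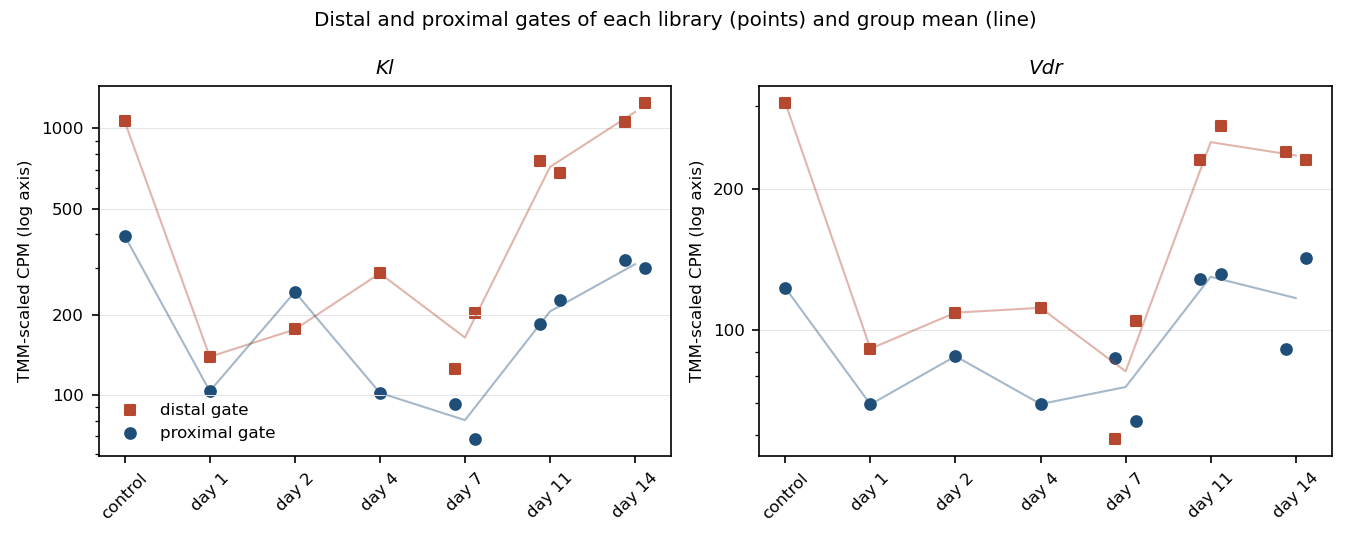
TMM-scaled CPM of Kl and Vdr (y axis, log scale) in the distal and the proximal gate of each library by group (x axis), with lines through the group means. Kl in the distal gate is at or below 286 on days 1 to 7 and at or above 680 in the control and on days 11 and 14.

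The change in the distal gate was tested against that in the proximal gate, an interaction added after the data were seen. For Kl the difference of the day 7 changes was -0.18 ± 0.23 on the log2 scale and did not pass (edgeR adjusted p = 0.731), but was -0.99 without replicate 2 of day 7 (adjusted p = 0.0478). For Vdr it was -0.93 ± 0.25 (edgeR adjusted p = 0.00316). Vdr and the background signal of Slc34a1 were the 2 members called, where 13.6% of 13789 genes were. With all libraries in the fit, Gc was not called. Without replicate 1 of day 7 its difference was -5.13, on 2 distal UMIs in the control and 1 in replicate 2 of day 7. The Vdr call was lost without replicate 1 of day 7 (-0.59, adjusted p = 0.141), and DESeq2 called 0 members here. From day 7 to day 11 neither Kl (0.55, edgeR adjusted p = 0.0914) nor Vdr (0.55, edgeR adjusted p = 0.175) passed, though with library totals both were 0.85 and did (adjusted p = 0.00173 and 0.00945). Without replicate 2 of day 7 both passed as well, Kl at 1.37 (adjusted p = 0.00166) and Vdr at 1.504 (adjusted p = 0.00824). Kl also passed without replicate 2 of day 11 (0.998, adjusted p = 0.0355) and with relative log expression scaling (0.69, adjusted p = 0.025). Here Slc34a1, at background level in the distal gate, was the 1 member called (7.3% of genes). From day 11 to day 14 edgeR called none (1.16% of genes) with 1 at an unadjusted p under 0.05 and DESeq2 0, and between day 14 and the control none (2.4% of genes) with 2 at an unadjusted p under 0.05 and DESeq2 0.

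Summed over all cells of a library, 6 members passed between day 7 and the control, where 36.7% of 17406 genes did. In such sums fewer cells of a type and less RNA per cell cannot be told apart. Slc34a1 fell further than in the proximal gate alone, to 143 and 154 TMM-scaled CPM on day 7 from 1234 in the control, a log2 change of -3.06 ± 0.27. Vdr passed here (-1.33 ± 0.22, edgeR adjusted p = 0.000692), at 45.1 and 46.1 on day 7 against 115 in the control, and so did Kl (-2.53 ± 0.21). Gc rose by 4.24 ± 0.30 to 63.3 and 61.3 from 3.29, Cyp27b1 by 3.15 ± 0.44, and Cyp24a1 by 3.68 ± 1.11 (edgeR adjusted p = 0.0231), a call lost without replicate 1 of day 7 (adjusted p = 0.0865). Slc34a3 and Slc20a1 did not pass, but each did without 1 library of day 7, Slc34a3 at -1.41 without replicate 1 (adjusted p = 0.0248) and Slc20a1 at 0.94 without replicate 2 (adjusted p = 0.012). Proximal cells held 52.5% of Kl UMIs in the control, 23.6% and 22.1% on day 7 and 59.8% and 58.0% on day 14. Their own numbers moved too, from 3396 of 5827 cells in the control to 382 of 3440 and 572 of 4896 on day 7. On day 14 they were 4675 of 6594 and 4183 of 5874 cells.

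To day 11, 7 members passed in all cells (44.2% of genes), all but Cyp24a1. The call of Slc20a1 (-0.61 ± 0.21, edgeR adjusted p = 0.0353) was lost without replicate 1 of day 7 (-0.33, adjusted p = 0.203), without either library of day 11 (adjusted p = 0.163 and 0.0863) and with at most 25% mitochondrial UMIs (adjusted p = 0.0555). Between days 11 and 14, 3 passed and all rose (17.8% of genes passed, 9% higher), namely Kl (1.03 ± 0.18, edgeR adjusted p = 0.00408), Cyp27b1 (1.92 ± 0.39, edgeR adjusted p = 0.0086) and Slc34a3 (1.32 ± 0.30, edgeR adjusted p = 0.0134). Kl passed without any 1 of these 4 libraries. Cyp27b1 was lost without either library of day 11 (adjusted p = 0.0509 and 0.0532), and Slc34a3 without replicate 1 of day 11 (adjusted p = 0.11) or replicate 2 of day 14 (adjusted p = 0.0799). Slc34a1 did not pass here, but did with DESeq2 (0.60, adjusted p = 0.0474), with no low-count filter (0.66, adjusted p = 0.00417) and without replicate 2 of day 11 (1.01, adjusted p = 0.0202). Between day 14 and the control 3 were higher (7.48% of genes passed, 4.22% higher). They were Slc34a3 (2.67 ± 0.40, edgeR adjusted p = 0.00619), at 20.4 and 28.9 TMM-scaled CPM against 3.85, Cyp27b1 (2.28 ± 0.44, edgeR adjusted p = 0.0157), and Slc34a1 (1.21 ± 0.30, edgeR adjusted p = 0.0368). Without replicate 2 of day 14 only Slc34a3 passed, and without replicate 1 of day 14 Slc34a1 did not (adjusted p = 0.0743). Cyp24a1 did not pass (3.85 ± 1.10, edgeR adjusted p = 0.0559), but did without replicate 1 of day 14 (4.65, adjusted p = 0.0023), with doublets kept (3.96, adjusted p = 0.0447) and with no low-count filter (3.82, adjusted p = 8.15e-13).

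The other genes of these pathways were counted in the proximal gate from lists of 35 genes, beside the 38.4% of all genes that passed on day 7 and the 38.7% from day 7 to day 11. Of 9 phosphate transporters and scaffold genes, 2 were higher and 5 lower on day 7, with a median log2 change of -0.96 beside 0.045 over all genes. Slc34a2, the NaPi-IIb transporter of lung and gut, rose by 5.24 ± 0.55, from 0.53 TMM-scaled CPM in the control to 26.2 and 17.0 on day 7. Slc17a3 changed by -2.91 ± 0.22, Slc17a1 by -1.75 ± 0.21 and the scaffold gene Pdzk1 by -1.40 ± 0.23. From day 7 to day 11, 4 rose and 2 fell, Slc34a2 by -2.65 ± 0.37 and Slc17a3 by 2.08 ± 0.20. In convoluted cells alone the day 7 change of Slc34a2 was 2.90 ± 1.17 and did not pass (edgeR adjusted p = 0.0938).

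Of 12 genes of FGF23 and parathyroid hormone signalling, 9 were tested and 2 rose and 2 fell on day 7 (median -0.06), a share near that of all genes. Stc2, a stanniocalcin, rose by 5.79 ± 0.64 and Fgfr1 by 0.93 ± 0.26, and Fgfr3 (-1.18 ± 0.30) and the parathyroid hormone receptor gene Pth1r (-1.17 ± 0.21) fell. Pth1r was 698 TMM-scaled CPM in the control, 335 and 285 on day 7 and 495 and 480 on day 11. With library totals the falls of Pdzk1, Fgfr3 and Pth1r kept their sign but did not pass. Of 8 genes of vitamin D synthesis and receptor partners, 7 were tested and 2 fell on day 7 (median -0.54): Fdx1, which passes electrons to the mitochondrial vitamin D enzymes (-1.08 ± 0.21), and the Vdr partner Rxra (-0.92 ± 0.25). From day 7 to day 11, 3 of them rose (median 0.62), Fdx1 by 1.60, Cyp27a1 by 1.19 and Rxra by 0.72, of which Rxra turned to -0.03 and Cyp27a1 did not pass (0.44, adjusted p = 0.193) with library totals. The day 7 falls of Fdx1 and Rxra also did not pass with library totals (-0.20 and -0.04). Of 6 calcium handling genes 4 were tested, with 1 higher on day 7 (Slc8b1, 2.06 ± 0.57). The call of Slc8b1 was lost without replicate 2 of day 7 (1.99, adjusted p = 0.0833) and in convoluted cells alone (1.11, adjusted p = 0.351). The day 7 calls of Fgfr3 and Rxra were also lost without replicate 2 of day 7 (adjusted p = 0.0677 and 0.0707). Those of Fgfr3, Rxra and Fgfr1 were lost with DESeq2 (adjusted p = 0.0697, 0.0573 and 0.0768) and with only the 2 groups compared (adjusted p = 0.0513, 0.0737 and 0.0555), and those of Fgfr1 and Fdx1 in convoluted cells alone (adjusted p = 0.125 and 0.838). The vitamin D list and the calcium list had smaller called shares than all genes on day 7. In the comparison of day 11 with day 7, Cyp27a1 and Rxra were lost without replicate 2 of day 7 (log2 change 1.01 and 0.60). Rxra was also lost without replicate 2 of day 11 (0.56), and Pth1r without replicate 1 of day 11 (0.63). In convoluted cells alone both Rxra and Pth1r were lost (edgeR adjusted p = 0.0543 and 0.12), and Rxra was lost with DESeq2 (DESeq2 adjusted p = 0.084).

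Further listed genes passed in the later comparisons of the proximal gate. Between days 7 and 11, Stc2 fell by 3.002 ± 0.41, and Fgfr3 (1.53 ± 0.27), Slc17a1 (1.55 ± 0.18) and Pdzk1 (1.53 ± 0.20) rose. The plasma membrane calcium pump gene Atp2b1 fell by 1.01 ± 0.22, and S100g, which encodes a calcium-binding protein, rose by 0.69 ± 0.19. Atp2b1 passed under 17 of 17 other settings and S100g under 13, turning to -0.07 with library totals. Between days 11 and 14 the phosphate exporter gene Xpr1 rose by 1.07 ± 0.19, from 38.7 and 30.003 TMM-scaled CPM to 73.6 and 70.2, and Slc34a2 fell by 3.18 ± 0.52. Xpr1 was lost without replicate 2 of day 11 (adjusted p = 0.101) and both were lost in convoluted cells alone (adjusted p = 0.0797 and 0.941). Against the control on day 14, the sterol reductase gene Dhcr7 was higher by 1.04 ± 0.26 and the disulfide isomerase gene Pdia3 lower, at -0.95 ± 0.23. Both passed under 12 of 16 other settings and were lost without either library of day 14 and in convoluted cells alone.

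Across the 10 libraries, the genes whose all-cells level was most like a member's were listed among 3319 genes of at least 50 CPM, by Pearson's r of log2(CPM + 1). These are descriptions over libraries that share depth and cell make-up. The nearest to Slc34a1 were Sord (r = 0.988), Prodh and Tcn2, those to Slc34a3 were Alpl (0.969), Gatm and Slc5a2, and those to Kl were Clybl (0.973), Hykk and Ogdh. The nearest to Gc were Anxa5 (0.990), Lgals3 and Ist1, those to Slc20a1 were Rpl7l1 (0.955), Psmd1 and Phf5a, and those to Vdr were Clpx (0.945), Suclg2 and Ppa2. Cyp24a1 had weaker neighbours, led by Slc3a2 (0.884), and Cyp27b1 was too low to be compared.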

How the data were processed

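Single cells of kidney cortex were measured by Drop-seq, per the labels' protocols. The authors deposited 1 table of UMI counts per library, as whole-number counts per gene and cell. Reads were aligned with Bowtie2 2.2.7 to mm10, per the submitters' processing notes; the counting tool and its annotation are not given in the sources used here. The members and gene lists were chosen with earlier results of these data known.

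From 64803 barcodes, 52797 cells were kept that had 500 or more UMIs and genes and no more than 50% of UMIs from mitochondrial genes. The day 11 tables were deposited with barcodes down to 300 genes and the others down to 500; the gene minimum removed 5362 and 5424 barcodes of day 11 and 0 of the other libraries. The 5% of each library with the highest Scrublet scores (scanpy 1.11.5) were removed as likely doublets, since the automatic threshold marked at most 0.111%, leaving 50158 cells and 3390 to 6594 per library. Gates used raw UMIs as described in the results. Of 65 chosen markers 64 were used, since the tables list the macrophage marker Adgre1 under its synonym Emr1 (RefSeq, GRCm38.p6), which was not counted; its median was 0.426 CPM in the proximal and 246 CPM in the macrophage gate. Tubular cells without a segment needed 2 UMIs over 8 general tubular markers. Raw counts were summed per library and gate (at least 30 cells) and tested with edgeR 4.0.16 (R 4.3.3) by its quasi-likelihood F test, with TMM scaling, filterByExpr and Benjamini-Hochberg adjustment over all genes tested at 0.05. The SE is the log2 change divided by the square root of F. TMM-scaled CPM divide by the library size times its TMM factor. The factors were computed within each fit, so a gate's values differ slightly between its own fit and a comparison of gates. Comparisons between gates had the library as a term.

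A single library's CPM has an exact Poisson interval and a share an exact Clopper-Pearson interval at 95%. Cells under 1000 UMIs were left out of thinned shares. A share of 0 allows up to 3 counts of the total. Alternatives were DESeq2 1.42.0, relative log expression scaling, no low-count filter, stricter gates, 25% mitochondrial UMIs, doublets kept, each replicate left out, only the 2 groups compared, and the replicate number as a block. Chosen after seeing the data were library totals without TMM, convoluted proximal cells only, the comparison by Havcr1, both distal gate comparisons with day 7 and the interaction of gate and day. All 8 members are given by day in the proximal gate, and elsewhere not every member is named. Listed pathway genes are named where they pass in the proximal gate, at most 4 per list and comparison.

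Same-numbered libraries of days 7, 11 and 14 were checked for pairing. Replicates of each of these 3 days differed beyond sampling noise (chi-square per degree of freedom 15.5 to 29.7). The files held 0 columns of other series.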

Additional observations from a re-analysis of the deposited data

Results flagged for a closer look

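The 3 results below are differences between the distal and the proximal gate in how a member changed between the same groups, tested as an interaction with edgeR's quasi-likelihood test. For Slc34a1 the change between day 7 and the control was lower in the distal gate by -1.97 ± 0.63 on the log2 scale (adjusted p = 0.017), and that from day 7 to day 11 was higher by 2.53 ± 0.58 (adjusted p = 0.000444). Distal Slc34a1 was at 75.3 TMM-scaled CPM in the control, 7.42 and 4.44 on day 7, and 116 and 190 on day 11, at or below the levels of endothelial cells and macrophages, and so is no measure of expression there. Without replicate 2 of day 7 both calls were lost (adjusted p = 0.37 and 0.165), and that of day 7 also with DESeq2 (adjusted p = 0.102) and with a gate ratio of 3 (adjusted p = 0.202). For Vdr, the vitamin D receptor gene, the change between day 7 and the control was lower in the distal gate by -0.93 ± 0.25 (adjusted p = 0.00316). With both gates scaled together, distal Vdr was 305 TMM-scaled CPM in the control and 58.8 and 105 on day 7. Proximal Vdr was 123 and then 87.3 and 64.3. The call was lost without replicate 1 of day 7 and under DESeq2.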

How the results depend on the processing

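Of 2128 values of single members under other settings, 2019 kept their side of the threshold, 59 gained a call and 49 lost one; 71 of the 2019, called under neither setting, had the other sign. Of values called under either setting 1 turned: Vdr in the proximal gate from day 7 to day 11 was -0.0376 with library totals, against 0.72. Of the listed pathway genes, Pth1r (-0.105), Rxra (-0.0321) and S100g (-0.0742) turned likewise in that comparison with library totals, which moved the median of all genes there from -0.0997 to -0.845. In the proximal gate on day 7, Slc34a1, Kl, Slc20a1 and Gc were called under all 16 settings, and Cyp24a1 and Cyp27b1 under 15, the exception being convoluted cells alone. The counts of members called below moved; where no value is named as moving with them, the cause was not tested.

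From day 11 to day 14 in the proximal gate (0 called) there were 3 with no low-count filter, 3 with only the 2 groups, and 0 to 3 when a replicate was left out. Between day 14 and the control there (1 called) there were 2 with library totals, 2 with the gate minimum of 5 UMIs, 2 with the gate ratio of 3, 2 with only the 2 groups, 3 with no filter, 0 in convoluted cells alone, and 1 to 2 with a replicate left out. In all cells, 3 fell to 1 without replicate 1 of day 11 (day 14 against day 11; 1 to 3 over all replicates) and without replicate 2 of day 14 (day 14 against the control; 1 to 3). In the distal gate from day 11 to day 14, the 1 call became 0 with relative log expression scaling, library totals, DESeq2, the gate ratio of 3, the 25% mitochondrial limit and the replicate block, and 0 to 1 with a replicate left out. Between day 14 and the control there, the 1 call became 0 with DESeq2 and the 25% limit, and 2 with only the 2 groups. Of the interactions, day 7 against the control (2 called) had 0 with DESeq2 and 1 with the gate ratio of 3. Day 11 against day 7 (1 called) had 2 with relative log expression scaling, 3 with library totals and 1 to 2 without a replicate. Day 14 against the control (0 called) had 1 with the gate minimum of 5 UMIs and 0 to 1 without a replicate.

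With library totals the higher share of all calls also moved in the proximal gate on day 14 against the control, from 45.5% to 68.8%. In all cells it moved from 48.7% to 84.4% on day 7, from 49.6% to 18.5% to day 11, from 50.5% to 28.7% to day 14 and from 56.4% to 42.9% on day 14 against the control. In the distal gate it moved from 46.8% to 91.5%, from 58% to 17.2%, from 40.9% to 29.7% (17.9% with DESeq2) and from 59.6% to 73.8%. It moved from 45.1% to 62.6% for the thick ascending limb, from 47.8% to 30% for straight cells and from 46.8% to 80% for cells with Havcr1 (61% with relative log expression scaling, 57.5% with DESeq2). For the interactions it moved from 50.4% to 37.7% on day 7 and from 41% to 69.9% to day 11.

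The labels number the replicates, but same-numbered libraries did not deviate together (correlations from -0.0692 to 0.102). The main fits did not pair them, though such correlations cannot exclude a shared source or batch. With the replicate block, 6, 7 and 4 members were called from day 7 to day 11 in the proximal gate, all cells and the distal gate, and 0, 3 and 0 from day 11 to day 14. The block changed 1 of 40 member values, Kl in the distal gate (0.59 ± 0.18, adjusted p = 0.0712). Depth limits Cyp24a1, Cyp27b1, Gc and Slc34a3 most, since the control held 7, 13, 59 and 70 proximal UMIs of them. The distal gate on day 7 held few cells, and shares of cells with a UMI moved with thinning.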

Other observations

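Tubular cells without a segment, which carried general tubular or injury markers (Havcr1 and Krt20 among them) but passed no segment's gate, also held Gc. Segment markers were present in their summed counts, at 483 CPM for the 12 proximal markers and 946 CPM for the 5 distal markers, against 6276 and 21739 CPM in the proximal and distal gates. They numbered 640, 256 and 920 on days 1, 2 and 4, 741 and 626 on day 7, 127 and 84 on day 11, and 20 to 25 in the control and on day 14. Gc in them was 33.7, 16.6 and 231 CPM on days 1, 2 and 4, 176 and 177 CPM on day 7 (mean 176 ± 1.38, SD, n = 2), and 0 and 21.6 CPM on day 11. The day 4 and day 7 libraries were the highest, and those of day 11 held 0 and 3 UMIs. On day 7, 14.2% and 19.3% of these cells held a Gc UMI, beside 29.1% and 29.2% of proximal cells and 1 of 54 and 1 of 155 distal cells. Thinned to 1000 UMIs a cell, the shares were 14.9% and 12.4% of these cells and 20.2% and 12.3% of proximal cells.

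Slc20a1, the widely expressed phosphate transporter, was 74.1, 35.5 and 124 CPM in the same cells on days 1, 2 and 4, 79.2 and 73.1 CPM on day 7, and 33.1 and 14.4 CPM on day 11. Cyp27b1 had 27 and 16 UMIs there on day 7 (24.3 and 10.6 CPM) and 32 on day 4 (19.0 CPM), and none on day 11. Slc34a1 stood at 102 and 126 CPM on day 7 in these cells, against 1014 and 850 CPM in the proximal gate of the same libraries.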
